A study of Mus musculus with 9 samples.

Results

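The 10 genes of the cardiac energy shuttle described here, found by their symbols in the deposited count table, were examined in cultured neonatal mouse ventricular myocytes (NMVMs). They are Ckm, Ckmt2, Ckb, Ckmt1, Mb, Ak1, Slc25a4, Slc25a5, Vdac1 and Slc6a8. All 10 of the 10 listed symbols were found among the 55401 genes of the table, and all 10 passed the filter on low counts, which kept 16762 genes. The NMVMs are primary heart muscle cells of wild-type C57BL/6J pups 1 day after birth, grown in DMEM with 10% FBS. The control group (3 libraries) stayed at normal oxygen in complete medium. The hypoxia group (3 libraries) spent 6 h in a sealed AnaeroPack chamber in DMEM that held neither glucose nor serum. The hypoxia + rSRGN group (3 libraries) had the same 6 h and the same medium with recombinant serglycin (rSRGN), a proteoglycan core protein, added. Oxygen, glucose and serum therefore changed together against control and cannot be told apart, while the labels give rSRGN as the one difference between the 2 hypoxic groups. The labels do not say that the 3 libraries of a group came from separate cultures, so p-values measure the spread between these libraries, which may be technical.

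Heart muscle makes most of its ATP in mitochondria and uses it at the myofibrils and ion pumps. Creatine kinases move the phosphate between ATP and creatine at both ends of this path: Ckmt2 encodes the sarcomeric mitochondrial enzyme, Ckmt1 the ubiquitous mitochondrial enzyme, Ckm the muscle-type cytosolic subunit and Ckb the brain-type cytosolic subunit, which is the more prominent one in immature heart and in many other cell types. Slc6a8 encodes the transporter that brings creatine into the cell. Slc25a4 and Slc25a5 encode carriers that exchange ADP for ATP across the inner mitochondrial membrane (ANT1, the heart and muscle form, and ANT2), and Vdac1 encodes the main channel of the outer membrane. Ak1 encodes the cytosolic adenylate kinase, which makes ATP and AMP from ADP. Mb encodes myoglobin, the oxygen-binding protein of heart and skeletal muscle. The genes are spread over the genome (GRCm38, positions as in the deposited table): Ckm lies at chr7:19404776-19422841, Ckb at chr12:111669361-111672338, Ckmt2 at chr13:91853387-91876885, Ckmt1 at chr2:121357714-121363737 and Slc6a8 at chrX:73673150-73682502. Slc25a4 lies at chr8:46206797-46211284, Slc25a5 at chrX:36795651-36798807, Vdac1 at chr11:52360860-52389397, Ak1 at chr2:32621758-32635058 and Mb at chr15:77015487-77050670.

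The promoters of the 3 genes with the largest falls in hypoxia (Ckm, Ckmt2, Mb) and of Ckb, the only one of the 10 called higher in hypoxia, are shown as the 250 bases before the RefSeq gene start (GRCm38.p6), read 5′ to 3′ on the gene's strand. Capitals mark matches to the E-box letters CANNTG, which bind basic helix-loop-helix factors, and to the TATA box letters TATAAA. Ckm lies at chr7:19410844-19411093 on the plus strand, Ckmt2 at chr13:91876886-91877135 on the minus strand, Mb at chr15:77022788-77023037 on the minus strand and Ckb at chr12:111672339-111672588 on the minus strand. Mb has 3 promoter entries, and the one nearest the start of the transcript used is printed.
Ckm: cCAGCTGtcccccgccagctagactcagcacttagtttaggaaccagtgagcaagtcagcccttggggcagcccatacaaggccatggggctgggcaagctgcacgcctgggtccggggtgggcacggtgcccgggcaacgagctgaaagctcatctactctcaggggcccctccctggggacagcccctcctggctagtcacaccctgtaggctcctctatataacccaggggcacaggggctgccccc
Ckmt2: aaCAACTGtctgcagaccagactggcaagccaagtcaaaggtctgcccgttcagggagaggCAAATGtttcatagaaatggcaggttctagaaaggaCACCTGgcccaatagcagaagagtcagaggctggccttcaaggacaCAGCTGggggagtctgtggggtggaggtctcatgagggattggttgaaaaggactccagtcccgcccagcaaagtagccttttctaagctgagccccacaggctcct
Mb: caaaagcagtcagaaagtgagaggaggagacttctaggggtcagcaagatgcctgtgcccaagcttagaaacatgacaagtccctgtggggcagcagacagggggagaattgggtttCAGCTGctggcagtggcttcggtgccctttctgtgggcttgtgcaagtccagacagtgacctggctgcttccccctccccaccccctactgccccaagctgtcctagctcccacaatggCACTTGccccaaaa
Ckb: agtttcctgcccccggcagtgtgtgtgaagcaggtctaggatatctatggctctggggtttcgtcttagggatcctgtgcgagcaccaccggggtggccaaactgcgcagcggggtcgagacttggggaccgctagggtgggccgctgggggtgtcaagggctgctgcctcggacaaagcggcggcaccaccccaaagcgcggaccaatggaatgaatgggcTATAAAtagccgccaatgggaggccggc

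Matches to CANNTG numbered 1 in Ckm (CAGCTG), 4 in Ckmt2 and 2 in Mb, and none lay in the Ckb window, which held TATAAA 28 bases before the start. Of 32851 mouse promoters of the same length, 66.2% held CANNTG and 12.4% held TATAAA, so an E-box match is common. ACGTG (the core of the hypoxia response element, in 16.6% of promoters), AAGGTCA (an element of nuclear receptors of the ERR type, 4.08%), TAAAAATA (an element of the MEF2 type, 2.45%) and AGATAA (the element that factors of the GATA family bind, 9.99%) were also searched on both strands and matched none of these 4 windows. Among the other genes, ACGTG was found on the minus strand 33 bases before the start of Ak1, AAGGTCA on the minus strand 106 bases before that of Vdac1 and AGATAA on the minus strand 226 bases before that of Slc25a5. The GC content of the windows was 64.8% for Ckm, 54% for Ckmt2, 57.2% for Mb and 62.8% for Ckb, against a median of 52.4% over all promoters. A match is a match of letters and not a measured binding site.

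The members include pairs of related enzymes, so the coding sequences (GENCODE release 21, GRCm38) were aligned to see how well fragments tell them apart. Ckm and Ckb were identical at 873 of 1149 aligned positions (76%), and Slc25a4 and Slc25a5 at 695 of 897 (77.5%). Ckmt2 and Ckmt1 were identical at 71.3%, and Ckm and Ckmt2 at 60.8%. The longest stretch shared without a mismatch is shown for the cytosolic creatine kinases, in exon 2 of 8 of both genes (Ckm chr7:19414225-19414244, plus strand, and Ckb chr12:111671852-111671871, minus strand), and for the ADP/ATP carriers, in exon 2 of 4 of both (Slc25a4 chr8:46209279-46209298, minus strand, and Slc25a5 chrX:36797053-36797072, plus strand).
Ckm and Ckb: atggccaaggtgctgacccc
Slc25a4 and Slc25a5: cagttctggcgctactttgc

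Each of these stretches has 20 bases, and no stretch of 75 bases was shared between the members. Shared stretches of 75 bases did occur with other genes, for 32.4% of the positions in the Mb transcript (the antisense gene Gm49540), 27.9% in Slc25a5 (6 other genes, mainly Gm5560), 13.4% in Ckb (the pseudogene Gm12892), 9% in Ckm (A930016O22Rik) and 0.779% in Ckmt2 (1700119I11Rik). Fragments from those positions could be assigned elsewhere or left out, and how far this moved the levels was not tested. The counting named no strand option, and the antisense or overlapping genes drew few counts over the 9 libraries: 109 for A930016O22Rik against 60445 for Ckm, and 12 for Gm49540 and 376 for Apol6 against 155292 for Mb. Ckmt1 is the exception, with 56 counts in all 9 libraries beside 19 for the overlapping gene Strc.

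Total counts per library ran from 21669017 to 22781557 in control, from 16583985 to 18148474 in hypoxia and from 16640239 to 20826701 in hypoxia + rSRGN. Libraries of one group differed by more than counting noise (chi-square per degree of freedom 3.63 to 13.1), and each was counted as 1 sample. The label of ventricular myocytes was checked against 15 cardiomyocyte markers, all of them measured, whose summed level was 50850 to 62010 CPM (counts scaled to library size) in control, 4142.2 to 6314.7 in hypoxia and 8106.6 to 8651.9 in hypoxia + rSRGN. The 10 fibroblast markers summed to 8988.7 to 10580, 17856 to 20632 and 19703 to 20318 CPM in the same order, so fibroblast transcripts were present in every library. Smooth muscle (6 genes, 1442.4 to 1716.6 CPM in control), endothelial (8 genes, 246.6 to 272.2 CPM) and macrophage markers (10 genes, 39.7 to 48.8 CPM) were lower, and the 6 erythroid genes reached at most 0.591 CPM in any library, with Hba-a2 at 0 in all of them.

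The first comparison, hypoxia against control, asks how the transcripts of the shuttle changed after 6 h in the sealed chamber without glucose and serum. Of the 10 genes, 7 were called lower and 1 was called higher, while 2 were not called. A gene was called at a Benjamini-Hochberg adjusted p below 0.05 in edgeR's quasi-likelihood test, over all 16762 genes, with a fold change of at least 1.5. Over all genes tested, 25.1% were called lower and 26.4% higher, and the median log2 fold change was 0.05, against -0.93 over the 10 members. The muscle-restricted genes fell the most, by 19.05-fold for Ckmt2, 11.6-fold for Ckm and 11.5-fold for Mb, while Ckb rose 1.67-fold. Levels of control and hypoxia libraries did not overlap for 9 of the 10 genes, which was also true of 73% of all genes. In bulk cultures, fewer myocytes and less of a transcript per myocyte cannot be told apart.

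**Figure D1:**
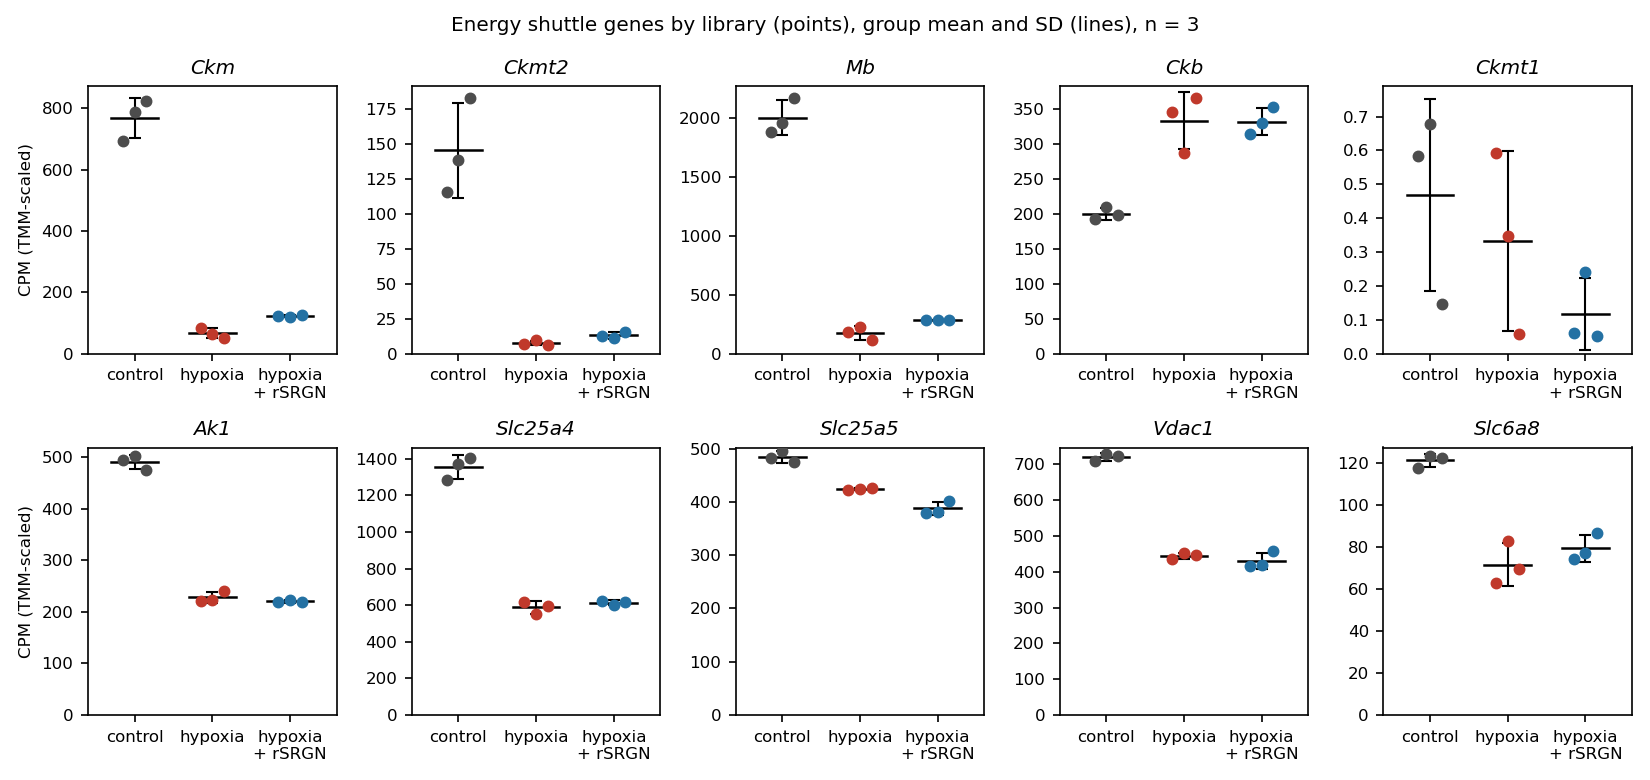
Level of each of the 10 genes (y axis, CPM after TMM scaling, each panel starting at 0 with its own range) in the 9 libraries by group (x axis), with points for libraries and lines for the group mean and SD (n = 3). Ckm, Ckmt2 and Mb were far below control in both hypoxic groups, Ckb was above it, and Ckmt1 was near 0 in every library.

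Ckm stood at 695, 787 and 823 CPM in the 3 control libraries and at 84.9, 62.3 and 51.3 CPM in hypoxia. The lowest control library was thus far above the highest hypoxia library, and the log2 fold change was -3.54 (SE 0.13, edgeR adjusted p = 1.75e-16). Of all genes tested, 2.31% had a lower log2 fold change. Ckmt2, its mitochondrial partner, stood at 116, 138 and 183 CPM in control and at 7.14, 9.36 and 6.43 CPM in hypoxia. Its log2 fold change of -4.25 (SE 0.16, edgeR adjusted p = 5.57e-16) left 5.25% of the control level, and 1.01% of all genes fell further. Ckmt2 also fell more than Ckm between the groups. The mean log2 ratio of Ckmt2 to Ckm dropped by 0.68, with no overlap between the groups (exact permutation p = 0.1, two-sided, the smallest that 3 against 3 allows). The nearest libraries were control library 1 at -1.61 and hypoxia library 2 at -1.76. Without hypoxia library 1 this ratio dropped by 0.45.

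Mb was the most abundant of the 10 genes in control, at 1882, 1956 and 2171 CPM, which made up 0.186% to 0.207% of all counts. In hypoxia it stood at 182, 225 and 114 CPM, or 0.0119% to 0.0224% of all counts. The groups did not overlap, and the log2 fold change was -3.53 (SE 0.15, edgeR adjusted p = 5.06e-15). Hypoxia library 3 was the lowest of the group in Ckm, Ckmt2 and Mb, and it was also the lowest in the mean log2 CPM of the 15 cardiomyocyte markers (7.06 against 7.78 and 7.56). The part of the myocyte share in this spread was not tested.

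Ckb moved the other way. Its 3 control libraries held 192, 209 and 198 CPM and its 3 hypoxia libraries 345, 287 and 366 CPM, with no overlap. The log2 fold change was 0.74 (SE 0.083, edgeR adjusted p = 5.73e-08), and 24.7% of all genes had a higher one. Markers of other cell types moved with it: 7 of the 10 fibroblast markers were called higher and 0 lower (median log2 fold change 0.90), and 2 of the 3 tested Schwann cell and neuron markers were called higher. Of 8 endothelial markers 1 was called higher and 5 lower, and of 9 tested macrophage markers 1 was called higher and 7 lower. Of 6 smooth muscle markers 1 was called higher and 1 lower. The part of these cell types in the level of Ckb was not tested.

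Within the cytosolic creatine kinases, the balance between the transcripts of the subunits turned over. The part of the cell mix in this shift was not tested. Per kilobase of gene length, Ckm made up 78.26%, 78.93% and 80.5% of Ckm plus Ckb in control and 19.64%, 17.76% and 12.24% in hypoxia. The gene lengths were 2913 bases for Ckm and 2895 for Ckb, against transcripts of 2742 and 1472 bases. The shares depend on the length used. The log2 ratio of Ckm to Ckb dropped by 4.29 in hypoxia, with or without division by length. This is a 19.6-fold difference in the ratio (exact permutation p = 0.1, the smallest possible). The 4 creatine kinase genes together summed to 431 ± 45.5 CPM per kilobase in control and 142.9 ± 14.01 in hypoxia (SD, n = 3), so the rise of Ckb was smaller than the loss of Ckm and Ckmt2. The ubiquitous mitochondrial gene Ckmt1 added almost nothing, with 13, 15 and 3 counts in the control libraries and 11, 6 and 1 in hypoxia. Its log2 fold change was -0.48 with a 95% interval from -1.92 to 0.95 (edgeR adjusted p = 0.544), which leaves the sign of any change undetermined.

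**Figure D2:**
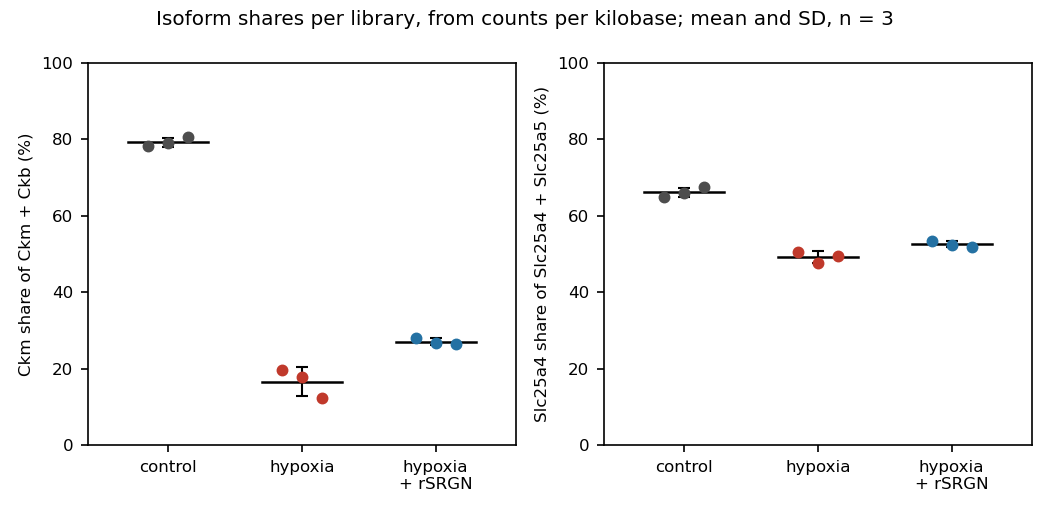
Share of Ckm in Ckm plus Ckb (left) and of Slc25a4 in Slc25a4 plus Slc25a5 (right), in percent of counts per kilobase (y axis, 0 to 100), for each library by group (x axis); points are libraries and lines the group mean and SD (n = 3). Ckm fell from 78.26% or more in every control library to 19.64% or less in every hypoxia library, and the hypoxia + rSRGN libraries lie between 26.36% and 28.12%.

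The 2 ADP/ATP carriers changed by different amounts. Slc25a4, the heart and muscle form, stood at 1281, 1373 and 1405 CPM in control and at 620, 550 and 598 CPM in hypoxia, a log2 fold change of -1.20 (SE 0.073, edgeR adjusted p = 1.68e-12). Slc25a5 stood at 483, 496 and 475 CPM in control and at 423, 424 and 427 CPM in hypoxia. Its libraries did not overlap either, and its adjusted p was 0.0134, but the log2 fold change of -0.19 (SE 0.066) lay below the fold limit, so it was not called (adjusted p 3.98e-04 to 0.104 over 15 alternatives). The ratio of Slc25a4 to Slc25a5 per kilobase was 1.86, 1.94 and 2.07 in control and 1.03, 0.907 and 0.980 in hypoxia, lower by 1.01 on the log2 scale (exact permutation p = 0.1). By this measure Slc25a4 outnumbered Slc25a5 in each control library and was near parity in hypoxia. Of the positions in the Slc25a5 transcript 27.9% were shared with other genes, and of those in Slc25a4 0%. How far this or the gene length moved the level of the ratio was not tested.

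Vdac1, Ak1 and Slc6a8 were called lower by smaller amounts. Ak1 went from 494, 502 and 475 CPM to 222, 223 and 240 CPM, a log2 fold change of -1.10 (SE 0.068, edgeR adjusted p = 2.08e-12). Vdac1 went from 708, 728 and 723 CPM to 436, 452 and 446 CPM, a log2 fold change of -0.69 (SE 0.068, edgeR adjusted p = 6.41e-09). The creatine transporter Slc6a8 went from 118, 123 and 122 CPM to 62.7, 82.5 and 69.3 CPM, a log2 fold change of -0.76 (SE 0.089, edgeR adjusted p = 9.70e-08). None of the 3 overlapped between the groups, and the spread was small beside the difference in each.

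The order of the levels per kilobase changed with these shifts. These levels divide by the deposited gene length, 2895 bases for Ckb and 1492 for Mb. The transcripts used above have 1472 and 1104 bases. With transcript lengths the order and ranks, that of Ckb above all, could differ, which was not tested. In control it ran from Mb (1342 CPM per kilobase) over Slc25a4 (575), Slc25a5 (294), Vdac1 (275), Ckm (264), Ak1 (189), Ckmt2 (98.0), Ckb (69.0) and Slc6a8 (23.2) to Ckmt1 (0.188). Vdac1 and Ckm were the only neighbours in this order whose libraries overlapped. In hypoxia the order was Slc25a5 (258), Slc25a4 (250), Vdac1 (170), Mb (117), Ckb (115), Ak1 (88.1), Ckm (22.7), Slc6a8 (13.7), Ckmt2 (5.14) and Ckmt1 (0.133), with overlap between Slc25a5 and Slc25a4 and between Mb and Ckb. Among the 16762 genes tested, Mb went from rank 18 in control to 368 in hypoxia, Ckm from 126 to 2092 and Ckmt2 from 417 to 6821, while Ckb went from 606 to 372. The 10 genes together made up 0.591% to 0.628% of all counts in control and 0.230% to 0.244% in hypoxia.

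The second comparison, hypoxia + rSRGN against hypoxia, asks what the added protein changed. Of the 10 genes, 3 were called higher, 0 were called lower and 7 were not called, and the 3 were Ckm, Ckmt2 and Mb, which had fallen the most in hypoxia. Since both comparisons share the hypoxia libraries, low values there raise one change and lower the other. Over all genes, 2.27% were called higher and 0.859% lower, and the median log2 fold change was -0.03, against 0.03 over the members. Libraries of the 2 groups did not overlap for 4 of the 10 genes and for 32% of all genes. The levels of these 3 genes with rSRGN stayed far under control.

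Ckm stood at 123, 120 and 127 CPM with rSRGN against 84.9, 62.3 and 51.3 CPM without. Each rSRGN library was above each hypoxia library, and the log2 fold change was 0.90 (SE 0.12, edgeR adjusted p = 5.96e-05), or 1.86-fold. Ckmt2 stood at 12.7, 10.8 and 15.3 CPM against 7.14, 9.36 and 6.43 CPM, a log2 fold change of 0.76 (SE 0.18, edgeR adjusted p = 0.0053), or 1.69-fold. Its groups did not overlap, though the highest hypoxia library lay close under the lowest rSRGN library.

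Mb stood at 282, 281 and 282 CPM with rSRGN, the narrowest spread of any group in this gene, against 182, 225 and 114 CPM without. The groups did not overlap and the log2 fold change was 0.70 (SE 0.14, edgeR adjusted p = 0.00195), or 1.62-fold. This call rested on hypoxia library 3: without it the log2 fold change was 0.47 (adjusted p = 0.00176; 8.325e-20 to 0.0114 over 15 alternatives), under the fold limit. Ckm and Ckmt2 were called with each of the 3 hypoxia and 3 rSRGN libraries left out in turn. The mean log2 CPM of the cardiomyocyte markers was 8.33, 8.20 and 8.19 in the rSRGN libraries, above all 3 hypoxia libraries, and 13 of the 15 markers were called higher.

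The other 7 genes were not called. For Ckb the log2 fold change lay between -0.17 and 0.17 (95% interval), with 314, 329 and 352 CPM with rSRGN, and its sign changed with the scaling. For Ak1 the interval ran from -0.19 to 0.09, for Vdac1 from -0.19 to 0.10, for Slc25a4 from -0.09 to 0.21 and for Slc6a8 from -0.04 to 0.33, all inside the fold limit of 1.5. Slc25a5 was at 380, 382 and 402 CPM with rSRGN, below every hypoxia library, with a log2 fold change of -0.13 (interval -0.27 to 0.01, edgeR adjusted p = 0.192). Ckmt1 had 1, 5 and 1 counts, and its interval ran from -3.21 to 0.40.

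**Figure D3:**
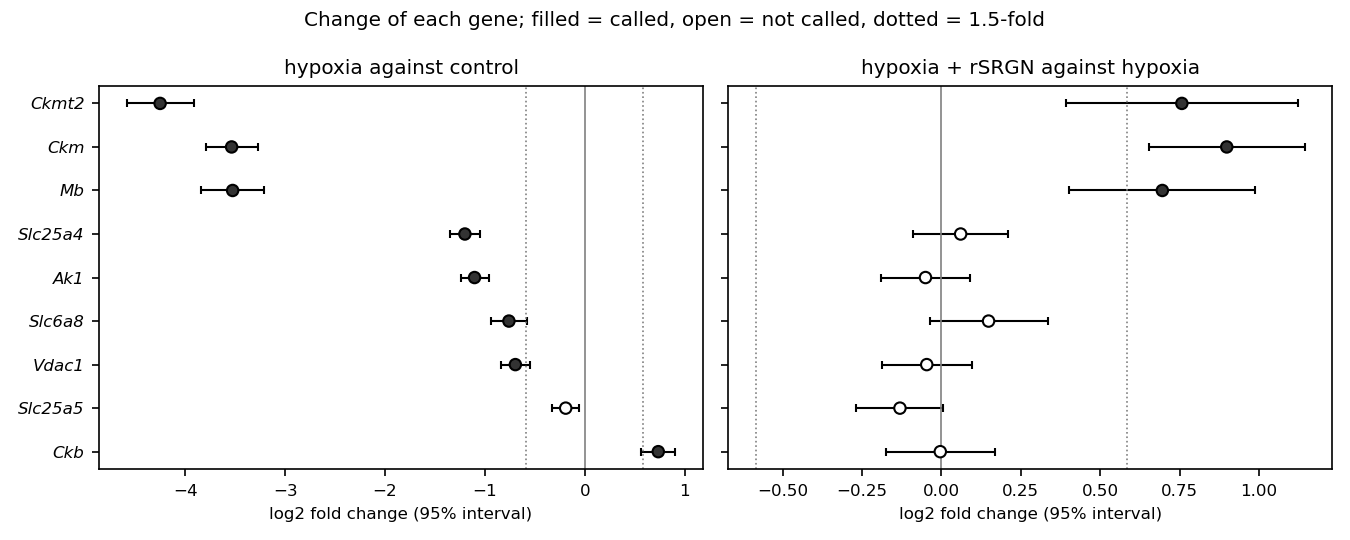
Log2 fold change (x axis) with its 95% interval for 9 of the genes (y axis; Ckmt1, with 56 counts in all, is not drawn), in hypoxia against control (left) and hypoxia + rSRGN against hypoxia (right, other x range). Filled points are called genes, open points are not, and dotted lines mark a fold change of 1.5; Ckmt2, Ckm and Mb lie farthest below 0 on the left and are the filled points on the right.

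The share of Ckm in the cytosolic creatine kinases was 28.12%, 26.61% and 26.36% with rSRGN, above the 12.24% to 19.64% of hypoxia and below the 78.26% to 80.5% of control. The log2 ratio of Ckm to Ckb was higher by 0.93 than in hypoxia (exact permutation p = 0.1). The ratio of Slc25a4 to Slc25a5 was 1.145, 1.101 and 1.079, higher by 0.19 on the log2 scale, without overlap (exact permutation p = 0.1). The log2 ratio of Ckmt2 to Ckm differed by -0.17 with overlap (exact permutation p = 0.6), so the mitochondrial and the cytosolic muscle genes were not told apart in their response. Per kilobase of the same deposited gene lengths, the order with rSRGN was Slc25a4 (261), Slc25a5 (236), Mb (189), Vdac1 (164), Ckb (115), Ak1 (85.0), Ckm (42.4), Slc6a8 (15.2), Ckmt2 (8.70) and Ckmt1 (0.0472). No neighbours in this order overlapped, and among all genes tested Mb had rank 220 and Ckm rank 1085.

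Against control, hypoxia + rSRGN left 8 genes called lower, 1 called higher and 1 not called, beside 24.7% of all genes called lower and 24.1% higher. Ckm stood at 16.1% of the control level, Mb at 14.1% and Ckmt2 at 8.87%, with log2 fold changes of -2.64 (SE 0.12), -2.83 (SE 0.15) and -3.50 (SE 0.15). Slc25a4 (-1.14), Ak1 (-1.154) and Vdac1 (-0.74) were about as low as in hypoxia alone, and Ckb (0.73) about as high. Slc25a5 fell short of the fold limit at -0.32. Slc6a8 was called at -0.61, close to the limit, and was not called at -0.56 with library size alone or at -0.57 without rSRGN library 1. Ckmt1 was called at -1.89 (edgeR adjusted p = 0.0434) on 7 against 31 counts with overlapping libraries. That call was lost with DESeq2 (adjusted p = 0.068), with a filter that kept genes with any count (edgeR adjusted p = 0.0549) and when control library 1 or 2 or rSRGN library 1 or 3 was left out (adjusted p 0.118 to 0.162), and the adjusted p ran from 0.0196 to 0.162 over its 13 alternatives.

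Because the cardiomyocyte markers fell as well, each gene was also set beside them within each library. In hypoxia against control all 15 markers were called lower, with log2 fold changes from -4.95 (Myh7) to -2.40 (Tnnt2) and a median of -3.66. Ckm, Ckmt2 and Mb lay inside that range, and the other 7 genes lay above it. Relative to the mean log2 CPM of the markers, Ckm differed by 0.14 (exact permutation p = 0.3) and Mb by 0.12 (exact permutation p = 0.9), both with overlap, and Ckmt2 differed by -0.54 without overlap (exact permutation p = 0.1). Without hypoxia library 2 the difference of Ckm was 0.21 (exact permutation p = 0.1). Without hypoxia library 1 the difference of Ckmt2 was -0.35 (exact permutation p = 0.2), and without control library 3 it was -0.41 (exact permutation p = 0.3). The signs for Ckm and Mb turned when the median of the markers was used in place of the mean: Ckm then differed by -0.08 without overlap (exact permutation p = 0.1) and Mb by -0.09 (exact permutation p = 0.8). Ckb was higher relative to the markers by 4.43, Slc25a5 by 3.51, Vdac1 by 3.01, Slc6a8 by 2.93, Ak1 by 2.599 and Slc25a4 by 2.50, none with overlap (exact permutation p = 0.1 each, the smallest possible).

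**Figure D4:**
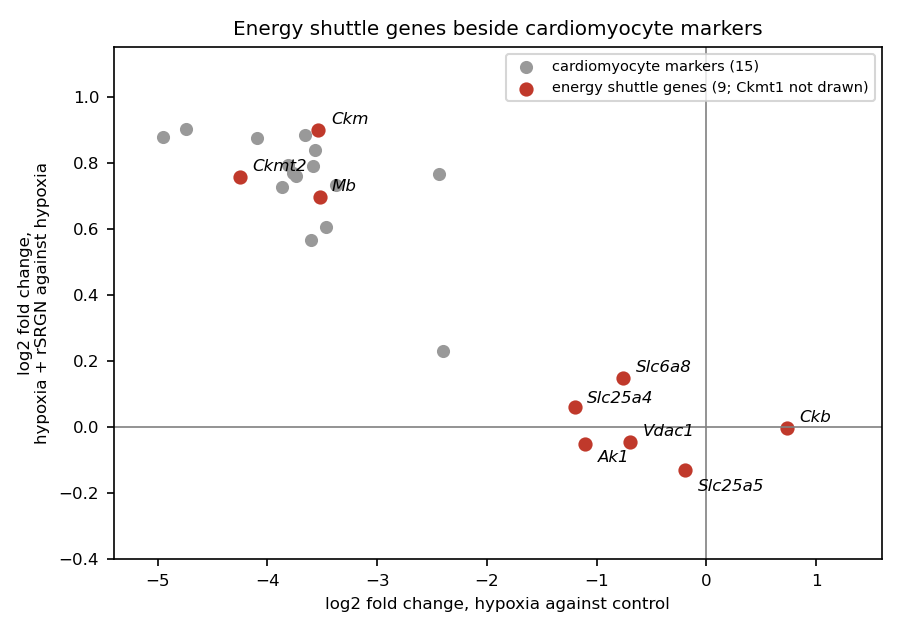
Log2 fold change in hypoxia against control (x axis) and in hypoxia + rSRGN against hypoxia (y axis) of 9 of the genes (red, named) and of the 15 cardiomyocyte markers (grey); both axes use the same hypoxia libraries. Ckm, Ckmt2 and Mb lie among the markers at the upper left, while the other 6 genes lie to the right of all of them.

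With rSRGN the 15 markers had log2 fold changes from 0.23 (Tnnt2) to 0.90 (Pln) with a median of 0.77, and Tnnt2 and Tnnc1 were the 2 that were not called. Relative to their mean, Ckm differed by 0.16 (exact permutation p = 0.3), Mb by -0.02 and Ckmt2 by -0.01 (exact permutation p = 1 for both), all 3 with overlap. Against the median of the markers, Ckm was higher by 0.15 without overlap (exact permutation p = 0.1). With single libraries left out, its difference from their mean ran from 0.085 without hypoxia library 2 (exact permutation p = 0.4) to 0.20 without rSRGN library 1 (exact permutation p = 0.1). Ckb (-0.77), Ak1 (-0.82), Slc25a4 (-0.71), Slc25a5 (-0.90) and Vdac1 (-0.82) were lower relative to the markers without overlap (exact permutation p = 0.1 each). Without hypoxia library 3 all 5 differences were smaller, with Ckb at -0.50 and Slc25a4 at -0.498. Slc6a8 differed by -0.62 with overlap (exact permutation p = 0.2).

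The genes whose level was most like that of Ckm over the 9 libraries, among 9749 genes of at least 10 CPM, were Myl3 (Pearson r = 0.9997), Cox6a2 (0.9992) and Afap1l1 (0.9991). Myl3 encodes a ventricular myosin light chain and is 1 of the markers, and Cox6a2 encodes the heart and muscle form of a cytochrome c oxidase subunit. For Mb they were Actc1 (0.9991), which encodes cardiac actin and is also a marker, Pkp4 (0.9989) and Ank3 (0.9985). For Ckb they were Vars (0.9956), a tRNA synthetase, Atp6v0c (0.9934), a subunit of the vacuolar proton pump, and Trim47 (0.9919). These correlations are descriptions over 9 libraries of 3 groups, and any gene with the same group means scores high.

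Other genes of energy transfer were counted from lists. The counts for hypoxia in all these lists stand beside 25.1% of all genes called lower and 26.4% called higher. Of 5 tested adenylate kinases other than Ak1, 2 were called lower and 2 higher in hypoxia: Ak4 (log2 fold change -2.13, SE 0.14) and Ak3 (-1.17, SE 0.087), both mitochondrial, were lower, and Ak5 (1.29, SE 0.13) was higher. Of 7 tested mitochondrial nucleotide and phosphate carriers other than the members, 3 were called lower and 1 higher. Slc25a23 (-2.64, SE 0.11), a calcium-regulated ATP-Mg/phosphate carrier, and Slc25a42 (-2.14, SE 0.15), a carrier of coenzyme A, were lower. Slc25a25 (1.82, SE 0.11), of the same family as Slc25a23, was higher, so these related carriers moved in opposite directions. The medians were -0.32 for the kinases and -0.30 for the carriers.

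Of the 5 outer membrane partners of Vdac1, 2 were called lower and 0 higher. These were the hexokinases Hk2 (-2.00, SE 0.12) and Hk1 (-1.84, SE 0.087), which bind VDAC at the outer membrane. Tspo had a log2 fold change of 0.57, under the fold limit, and Vdac2 (-0.40) and Vdac3 (-0.43) were not called either. Of 11 genes for AMPK, the kinase that senses AMP, and for AMP handling, 4 were called lower and 2 higher. Prkaa2 (-3.72, SE 0.11), the catalytic subunit that prevails in muscle, Prkag2 (-2.59, SE 0.092), a regulatory subunit, and Ampd3 (-1.74, SE 0.10), an AMP deaminase, were lower. The edgeR adjusted p of every gene called here was at most 1.17e-04.

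Of 6 nucleoside diphosphate kinases, 1 was called higher (Nme1, 0.90, SE 0.11) and 5 were not called, among them Nme6 (0.08) and Nme7 (0.04). Gatm and Gamt, the enzymes of creatine synthesis, were not called, at -0.11 and -0.45. The globin Cygb, the only other one tested, was called higher at 1.16 (SE 0.15, edgeR adjusted p = 4.08e-07) while Mb fell. With rSRGN against hypoxia, 1 of the 11 AMPK and AMP genes was called, and 0 in each of the other lists, beside 2.27% of all genes called higher. It was Prkaa2 at 0.70 (SE 0.12, edgeR adjusted p = 3.88e-04), which stood at 16.02 ± 3.897 CPM in hypoxia and 26.2 ± 1.00 CPM with rSRGN (SD, n = 3). Its control level was 212 ± 9.43 CPM.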

How the data were processed

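Poly(A)-enriched RNA of NMVMs was sequenced as 9 libraries on an Illumina NovaSeq. The deposited values are raw fragment counts, 1 whole number per gene and library. The file header names featureCounts 2.0.1 in paired mode on exons, GENCODE release 25 (GRCm38) and no strand option, and the submitters' processing notes name HISAT2 and mm10. Columns left unused numbered 0.

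Groups and replicate numbers came from the labels. After filterByExpr and TMM scaling, all 9 libraries entered 1 fit in edgeR 4.0.16 (R 4.3.3) with 3 group means. CPM are TMM-scaled, and levels per kilobase use the gene length of the table. Within-library ratios were compared by exact two-sided permutation tests. The edgeR step was tested on simulated data. Alternatives are given below, with DESeq2 1.42.0 among them. Promoters are from RefSeq and transcripts from GENCODE release 21. Promoter entries were found for 9 of the 10 genes. Figures used matplotlib 3.10.9.

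The genes and lists were chosen with earlier results of these data known. Named were all 10 genes, up to 3 genes of at least 10 CPM per list with the largest change in hypoxia, and the 3 genes most like Ckm, Mb and Ckb. Genes named outside that rule (Gatm, Gamt, Vdac2, Vdac3, Cygb, the markers Myh7, Tnnt2, Tnnc1, Pln and Hba-a2, and genes that share sequence or position with a member) were chosen after their values were seen.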

Additional observations from a re-analysis of the deposited data

How the results depend on the processing

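Over the 15 alternatives, the number of the 10 genes called ran from 8 to 9 for hypoxia against control, from 2 to 3 for hypoxia + rSRGN against hypoxia and from 7 to 10 for hypoxia + rSRGN against control. Same-numbered libraries did not deviate together (correlations -0.0374 to 0.0215), so the replicate numbers were not taken as pairs. With the replicate block, 8, 3 and 9 genes were called in the same order. Another scaling moved the median of all genes by at most 0.069 on the log2 scale.

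The log2 fold change of Ckb in hypoxia + rSRGN against hypoxia, which was not called, turned positive with DESeq2 (0.024596), RLE scaling (0.024599), filters that kept genes with any count (0.0068884) or with 10 counts or more per library (0.0091308) and a fit of only the groups compared (0.012166), and ran from -0.097751 to 0.071256 with single libraries left out. With the median of the markers in place of the mean, hypoxia against control gave -0.081726 for Ckm and -0.094944 for Mb. With single libraries left out, hypoxia against control gave -0.045931 to 0.22033 for Mb and 0.099056 to 0.20959 for Ckm relative to the markers, -0.65288 to -0.34602 for Ckmt2 relative to them, and -0.86247 to -0.44507 for the log2 ratio of Ckmt2 to Ckm. In hypoxia + rSRGN against hypoxia, Mb relative to the markers ran from -0.11911 to 0.14715, Ckmt2 from -0.20786 to 0.099008, the log2 ratio of Ckmt2 to Ckm from -0.40309 to 0.014311, and the number of genes above the markers from 1 to 3. The cause of these changes of sign was not tested.

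Permutation tests of 3 against 3 libraries cannot go below p = 0.1, and Ckmt1 rests on 56 counts in all. The dose of rSRGN is not given in the sources used here.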
